A study of Mus musculus with 2 samples.

Results

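Tumour necrosis factor (TNF) superfamily genes were followed through maps of H3K36me2, histone H3 carrying 2 methyl groups on lysine 36, in regulatory T (Treg) cells of the mouse spleen. The 41 genes were the protein-coding genes of the mm10 RefSeq annotation on chromosomes 1 to 19 and X whose symbol begins with Tnfrsf or Tnfsf, together with Cd27, Cd40, Cd40lg, Cd70, Fas, Fasl, Tnf, Lta and Ltb. They comprised 23 receptors and 18 ligands, out of 21631 coding genes, or 0.190%. One ligand entry, Tnfsfm13, is a readthrough gene that spans Tnfsf12 and Tnfsf13 and shares all of their regions. Each gene was read over a window made of its body and 5 kb on either side.

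The data were 2 lists of enriched regions. One came from Treg cells of mice with Nsd2, the gene of a methyltransferase that deposits H3K36me2, deleted conditionally in Treg cells (KO). The other came from Treg cells of wild-type mice (WT), and both were on the C57BL/6 background. The sources used here do not give the Cre driver of the deletion, the age and number of animals, the antibody or any input library. Each genotype had 1 library, so no difference has a replicate check, no p-value is given, and every difference below describes these 2 libraries.

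The ligands of this superfamily are mostly trimeric proteins, made at the cell surface or shed from it, and the receptors bind them through cysteine-rich repeats. Some receptors carry a death domain that can start apoptosis, and others recruit TRAF adaptors that switch on NF-kB. OX40 (Tnfrsf4), GITR (Tnfrsf18) and TNFR2 (Tnfrsf1b) are known for their high levels on Treg cells, where signals through them promote Treg development, survival and expansion. H3K36me2 covers broad stretches of intergenic and genic chromatin, and NSD2 is one of the enzymes that place it.

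Per the file headers, the KO library had 14789700 tags and 39745 regions, and the WT library had 17158154 tags and 54527 regions. A 500 bp peak needed 12 tags in KO and 13 tags in WT, which is 8.11 and 7.58 tags after scaling to 10000000, so the call was stricter in KO. The deposited normalised tags of some 500 bp regions lie below these values, such as 7.1 in KO and 6.41 in WT. Regions on the chromosomes used covered 31445288 bp in KO, or 74.3% of the 42314794 bp in WT. Regions held 5.89% of the tags in KO and 7.17% in WT. The part of depth and of enrichment in the shorter KO cover was not tested. A base outside a region lay below the calling threshold, and its mark was not measured. As a check of the cell type, 8 of 9 T cell marker windows held a region in each library (Ctla4 was the exception in both), with 19.1% of their pooled length covered in KO and 16.8% in WT. The pooled share was 2.43% in KO and 3.54% in WT for 7 B cell markers, and 1.39% in KO and 2.19% in WT for 6 myeloid markers. For 6 NK and CD8 T cell markers it was 0.469% in KO and 3.68% in WT, and for 4 erythroid markers 1.90% in KO and 0.865% in WT.

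Regions were found in or near most of the superfamily in both libraries. In KO, 32 of the 41 windows (78.0%) held a region, against a background of 48.9% of all coding windows. In WT, 33 windows (80.5%) held one, against a background of 53.4%. Both libraries had a region in 29 windows. Tnfrsf13c, Tnfrsf23 and Tnfsf9 held one in KO alone, between 500 and 755 bp. Tnfrsf11a, Tnfrsf17, Tnfrsf21 and Tnfsf13b held one in WT alone, of 500 bp each, the shortest length the caller gives. The windows of Cd40, Tnfrsf11b, Cd40lg, Tnfsf15 and Tnfsf18 held none in either library. Of all 21631 coding windows, 8808 held a region in both libraries and 8326 in neither. A region in KO alone was held by 1763 of them, and a region in WT alone by 2734. Windows with a region in 1 library alone were thus common among coding genes at large.

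Covered length of the superfamily was nearly the same in the libraries, and over all coding windows it was shorter in KO. Regions covered 10.8% of the pooled superfamily windows in KO (124720 bp) and 10.6% in WT (122047 bp), so the KO length was 102% of the WT length. Over all coding windows the share was 1.92% in KO and 2.52% in WT, and the KO length was 76.1% of the WT length. With gene bodies alone these percentages were 94.6% for the superfamily and 74.7% for all coding genes. Under filters applied to both lists, the percentages were 111% and 88.2% with 500 bp regions held to the KO tag threshold in normalised tags, 107% and 79.1% with regions of at least 1 kb, and 109.98% and 82.5% with regions of at least 10 normalised tags. The same bases were covered more often in the superfamily. Of its covered bases, 62.0% in KO and 63.4% in WT were covered in the other library, compared with 38.4% in KO and 29.2% in WT over all coding windows. The superfamily was not alone in this. The T cell markers had KO length at 114% of WT, with 56.6% of KO and 64.3% of WT bases shared. A list of 34 signalling genes, described below, had KO length at 101% of WT, with 44.5% and 45.0% shared. KO length was 68.7% of WT for the B cell markers and 63.5% for the myeloid markers. Part of the windows overlap, so neighbouring members share regions and are not independent of each other.

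Receptors were more heavily covered than ligands in both libraries. The receptor windows were covered over 12.6% in KO and 12.6% in WT, and the ligand windows over 6.91% in KO and 6.25% in WT. The median window held 1862 bp in KO and 2456 bp in WT for receptors, and 698.5 bp in KO and 1323 bp in WT for ligands. Medians over all coding windows were 0 bp in KO and 500 bp in WT. The medians were thus lower in KO while the sums were not, and in each class a few genes held most of the length.

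**Figure D1:**
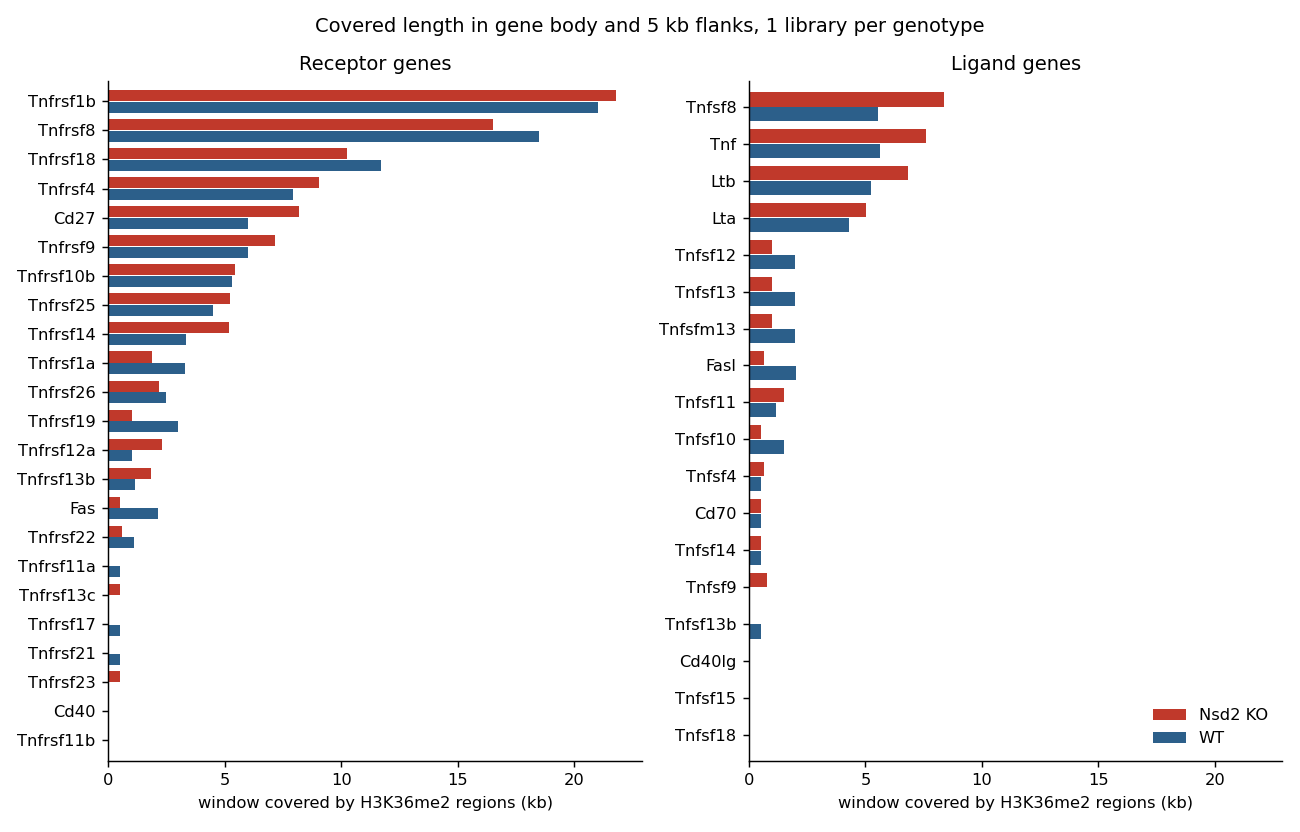
Covered length (kb) of each receptor window (left) and ligand window (right), with the Nsd2 KO bar above the WT bar, 1 library per genotype and no error bars. Tnfrsf1b and Tnfrsf8 lead the receptors at 16499 bp or more in both libraries, Tnfsf8, Tnf, Ltb and Lta lead the ligands, and the lower part of each panel is near 0.

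The 8 receptors known to costimulate T cells (Tnfrsf4, Tnfrsf18, Tnfrsf9, Tnfrsf25, Tnfrsf8, Tnfrsf14, Cd27 and Tnfrsf1b) held most of the covered length. They made up 18.5% of the pooled window length and held 66.6% of the superfamily's covered bases in KO and 64.5% in WT. Of the receptors' covered bases they held 83.4% in KO and 79.2% in WT. Each other receptor role was covered over 4.34% or less in KO, below the ligands. In WT the death domain receptors (6.27%) were level with the ligands (6.25%), and the remaining receptor roles were below them. The lead of receptors over ligands thus lay with the costimulatory receptors. The windows of the 8 costimulatory receptors were covered over 39.0% in KO and 37.0% in WT, and 6 of the 8 held more covered bases in KO. Over all coding windows 22.8% held more in KO, and 32.2% of those averaging at least 3 kb. Of the 9 T cell markers 8 held more in KO, so this was not particular to the receptors. Tnfrsf4 and Tnfrsf18 share regions, so the 8 windows are not independent. The remaining 33 genes were covered over 4.44% in KO and 4.61% in WT. Of the 8 genes, 7 lie on chromosome 4.

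Tnfrsf4 encodes OX40 and lies on mm10 chromosome 4 at 156013595-156016613, plus strand. Tnfrsf18 encodes GITR and follows it at 156026322-156028894, plus strand. Both bodies were covered from end to end in KO and in WT, 100% in each case. Among 19190 coding genes of at least 2 kb, full cover was reached by 7 in KO and 6 in WT, and by 4 in both. Those 4 were Tnfrsf4, Tnfrsf18 and the neighbours Ugt1a1 and Mroh2a on chromosome 1. This count was chosen after the values were seen and is given as a description.

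The window of Tnfrsf18 held 10251 bp in KO and 11709 bp in WT, which is 81.5% and 93.1% of its length. The window of Tnfrsf4 held 9054 bp in KO and 7927 bp in WT, or 69.5% and 60.9%. Regions touching the Tnfrsf18 window carried 317.5 normalised tags in KO and 285.6 in WT, with exact Poisson 95% intervals of 289 to 348 in KO and 261 to 312 in WT. These normalised tags are the authors' values per region, scaled to 10000000 tags per library. The intervals cover counting error only, since the tags are PCR reads without molecular identifiers. Each sum counts tags of the regions called in that library, which differ between the libraries. It therefore largely follows called length and does not compare signal over the same bases.

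The promoter of Tnfrsf18 is shown because it lies wholly inside a region in both libraries (250 of 250 bases). The 250 bases before the gene start, at chr4:156026072-156026321 on the plus strand of mm10, are from RefSeq, with CpG dinucleotides in capitals, of which there are 2.
Tnfrsf18 promoter: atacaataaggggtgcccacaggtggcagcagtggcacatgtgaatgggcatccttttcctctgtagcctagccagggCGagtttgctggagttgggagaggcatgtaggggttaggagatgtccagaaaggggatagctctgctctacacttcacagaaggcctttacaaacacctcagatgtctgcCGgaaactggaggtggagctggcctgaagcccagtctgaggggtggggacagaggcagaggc

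Across the whole Tnfrsf4-Tnfrsf18 locus, from 5 kb before the first gene to 5 kb after the second (25300 bp), regions covered 19013 bp in KO and 19344 bp in WT. These are 75.2% and 76.5% of the locus. Bases covered in both libraries came to 17345 bp, or 91.2% of the KO length and 89.7% of the WT length. Normalised tags summed to 474 in KO (439.7 to 511) and 426 in WT (395 to 458), and these counting intervals overlap. The KO library had 5 regions there and the WT library had 6.

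The regions broke at different places. In KO, a 5707 bp region ran over the end of the neighbouring gene Sdf4 and all of Tnfrsf4, with 118.7 normalised tags. Its WT counterpart was 5201 bp long with 96.2 normalised tags. Between the genes, KO had 1 region of 4623 bp, and WT had regions of 500, 689 and 3875 bp. Over Tnfrsf18 and downstream of it, KO had separate regions of 3814 and 3940 bp, with 93.0 and 101.4 normalised tags, where WT had a single region of 8339 bp with 187.4 normalised tags.

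**Figure D2:**
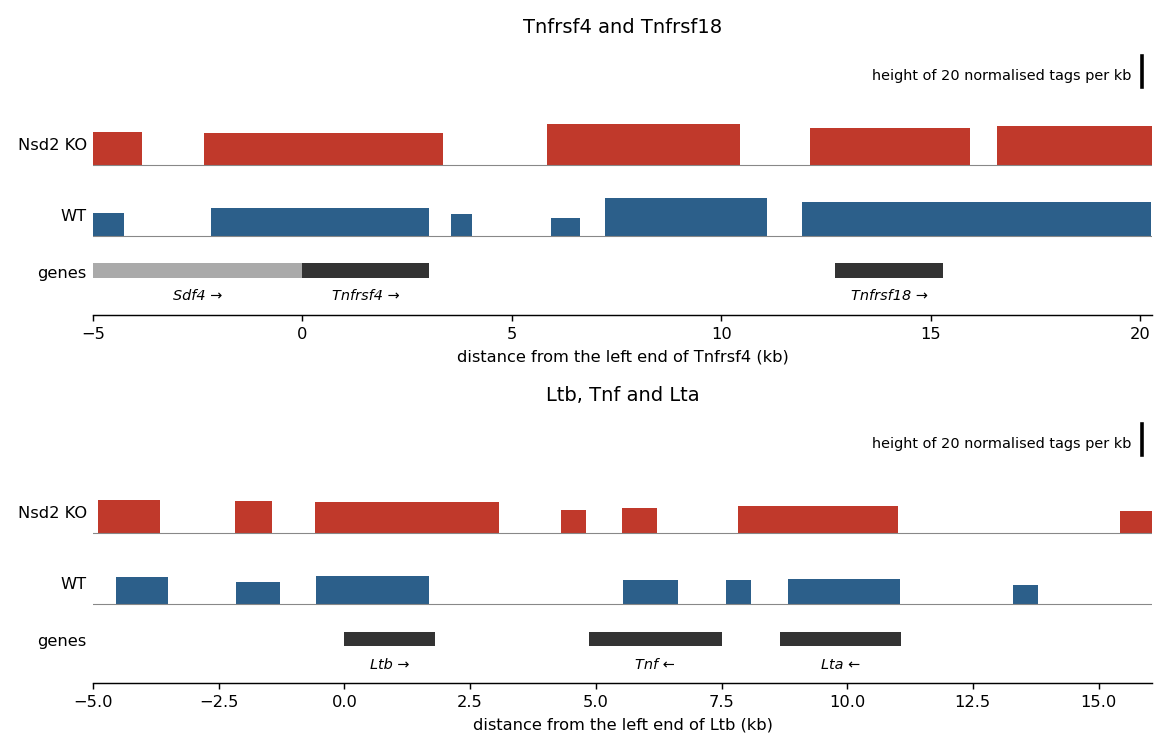
Regions at the Tnfrsf4-Tnfrsf18 locus (top) and the Ltb-Tnf-Lta locus (bottom), with the Nsd2 KO track above the WT track. The horizontal axis is distance in kb from the left end of the first gene, box height is normalised tags per kb of region, dark bars are superfamily genes, grey bars are other genes, and arrows give the strand. Boxes cover Tnfrsf4 and Tnfrsf18 fully in both libraries, and the KO boxes over Ltb and Lta are longer than the WT boxes.

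Tnfrsf1b encodes TNFR2, the TNF receptor without a death domain, and lies on chromosome 4 at 145212368-145246870, minus strand. Its window had the largest covered length of the 41. It held 21815 bp in KO and 21014 bp in WT, in 8 regions in each library, and 18179 bp were common to both. Normalised tags were 382 in KO (351 to 415) and 380.3 in WT (352 to 411). The longest region was 11345 bp in KO and 8657 bp in WT.

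The Tnfrsf1b promoter is shown as a CpG-richer counterpart that was also covered over 250 of 250 bases in both libraries. It lies at chr4:145246871-145247120 and is written 5′ to 3′ on the minus strand, with its 12 CpG dinucleotides in capitals.
Tnfrsf1b promoter: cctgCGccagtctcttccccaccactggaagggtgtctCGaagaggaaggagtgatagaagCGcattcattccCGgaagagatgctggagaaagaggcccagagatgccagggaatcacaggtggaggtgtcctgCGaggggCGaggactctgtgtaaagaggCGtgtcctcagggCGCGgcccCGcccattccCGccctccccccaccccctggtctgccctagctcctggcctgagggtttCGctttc

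Tnfrsf8 encodes CD30, a receptor of activated lymphocytes, and lies next to Tnfrsf1b. Its window held 16499 bp in KO, in 11 regions, and 18504 bp in WT, in 14 regions, with 9742 bp common to both. It and Tnfrsf18 were the costimulatory receptors with fewer covered bases in KO. Over the joint locus of Tnfrsf1b and Tnfrsf8 (112797 bp) regions covered 36.1% in KO and 36.9% in WT, with 719 normalised tags in KO and 722 in WT.

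**Figure D3:**
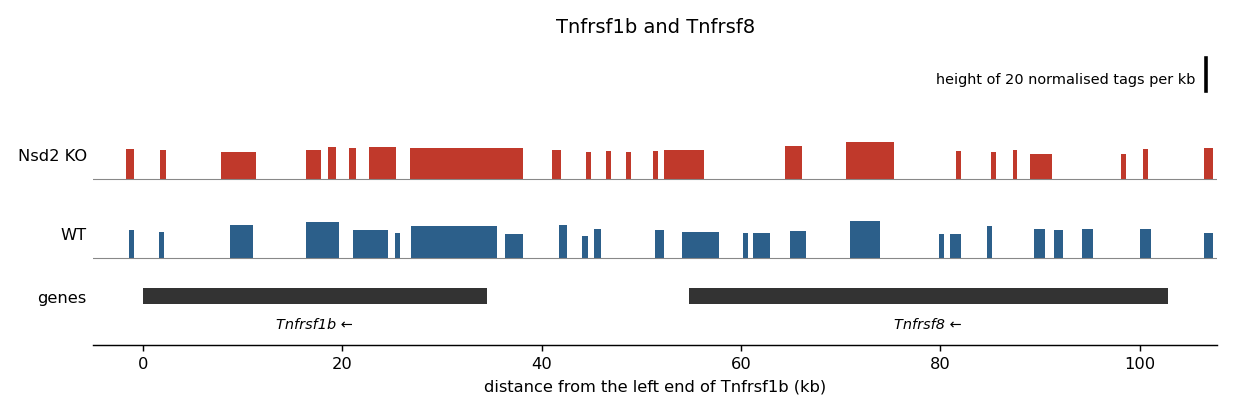
Regions across Tnfrsf1b and Tnfrsf8, with the Nsd2 KO track above the WT track, distance in kb from the left end of Tnfrsf1b on the horizontal axis and normalised tags per kb of region as box height. The long region at the 5′ end of Tnfrsf1b is 11345 bp in KO and 8657 bp in WT, and the boxes over Tnfrsf8 are shorter and more scattered in both libraries.

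Cd27 encodes the receptor of CD70 and lies on chromosome 6 at 125232620-125237136, minus strand. Its window held 8198 bp in KO and 6009 bp in WT. Of the WT bases, 96.4% were also covered in KO, and of the KO bases 70.6% were also covered in WT. The gene body was covered over 64.2% in KO and 36.7% in WT. Whole regions touching the window carried 146 normalised tags in KO (128 to 167) and 156 in WT (138 to 176). The WT sum includes a region of 4881 bp with 79.6 normalised tags that runs beyond the window.

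Tnfrsf9 encodes 4-1BB, a receptor induced when T cells are activated. Its window held 7172 bp in KO and 6012 bp in WT, with 156.6 normalised tags in KO (137 to 178) and 112.3 in WT (97.0 to 129). These counting intervals do not overlap, but the called bases differed, with 3895 bp common to both libraries. Per kb of region the tags were 19.2 in KO and 16.2 in WT. The body itself was covered over 20.2% in KO and 18.7% in WT.

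Tnfrsf14 encodes HVEM, which binds LIGHT and the inhibitory receptor BTLA. Its window held 5169 bp in KO and 3339 bp in WT. It carried 103.5 normalised tags in KO (87.8 to 121) and 50.2 in WT (40.1 to 62.0). The counting intervals do not overlap, but the called bases differed, with 2628 bp common to both libraries. A 2141 bp region began 968 bp inside the gene in KO. Over the same stretch WT had regions of 500 and 701 bp. Tnfrsf25, which encodes the death domain receptor DR3, held 5221 bp in KO and 4515 bp in WT, although its body was covered over 51.6% in KO and 74.1% in WT.

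A rule of size was used to name differing windows. A window counted as lower or higher in KO when its covered length differed at least 2-fold and the larger length was at least 1000 bp. By this rule 4 of the 41 genes (9.76%) were lower in KO, against a background of 13.9% of all coding windows, and 1 gene (2.44%) was higher, against a background of 6.31%. Among windows that reached 1000 bp in either library, 4 of 26 superfamily genes (15.4%) were lower, against a background of 33.6%, and 1 (3.85%) was higher, against 15.2%. The covered length of every costimulatory receptor stayed inside the 2-fold limits, while Tnfrsf14 was higher in KO by normalised tags and under each filter on short or weak regions that was tried.

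**Figure D4:**
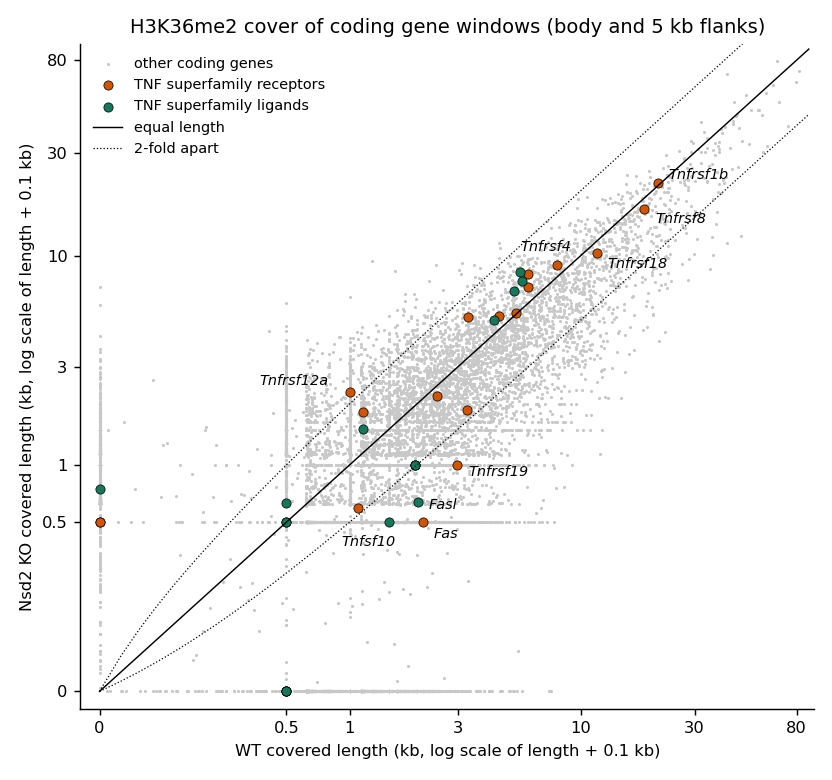
Covered length of each coding gene window in the Nsd2 KO library (vertical, kb) against the WT library (horizontal, kb), both on a log scale of length plus 0.1 kb. Grey points are other coding genes, orange points are receptors and green points are ligands. The solid line marks equal length and the dotted lines 2-fold differences. Tnfrsf19, Fasl, Fas and Tnfsf10 lie below the lower dotted line, Tnfrsf12a lies above the upper one, and the well-covered members lie near the solid line.

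Well-covered windows of the superfamily stood nearer to equality. Of 13 superfamily windows that averaged at least 3 kb over both libraries, none passed the rule in either direction. The KO over WT ratio of their covered lengths ran between 0.875 and 1.55, and 11 of the 13 (84.6%) held more covered bases in KO. Of 2526 coding windows of that class, 500 (19.8%) were lower, 76 (3.01%) were higher and 813 (32.2%) held more covered bases in KO. The class was chosen after the values were seen, and several of the 13 windows share regions.

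The genes lower in KO by the rule were Fas, Fasl, Tnfsf10 and Tnfrsf19. Fas encodes a death receptor that ends T cell responses. Its window held 500 bp in KO in 1 region and 2127 bp in WT in 4 regions, with no base common to both. One of the WT regions, of 500 bp, spanned the gene start, and KO had no region there. Each of these regions was close to the calling threshold, with 8.11 normalised tags in KO and 7.58 to 9.91 in WT.

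Fasl encodes the Fas ligand, a product of activated T cells and NK cells. Its window held 642 bp in KO and 2024 bp in WT. Both libraries had a 642 bp region at the gene start, of which 442 bp overlapped. The difference came from 2 WT regions upstream, of 500 and 882 bp, that had no KO counterpart. The call ended when the flanks were left out, with 200 bp more in KO. The NK and CD8 T cell markers also held less in KO, with 510 bp in KO and 4006 bp in WT over 6 windows. Cd8a, Gzma and Klrb1c held none in KO, and Cd8b1 held 10 bp in KO and 704 bp in WT. Gzmb held 500 bp in each library, and Ncr1 held none in either. The part of these cells in the Fasl difference was not tested.

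Tnfsf10 encodes TRAIL, a ligand that triggers apoptosis. Its window held 500 bp in KO and 1500 bp in WT, with no base in common. Tnfrsf19, a receptor known from brain and skin, held 1000 bp in KO and 2997 bp in WT, with 234 bp in common. Fas and Tnfsf10 had no region left in either library when regions under 1 kb were dropped, while Tnfrsf19 stayed lower in KO in each of the 6 other window and region settings tried.

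Tnfrsf12a, which encodes Fn14, the receptor of TWEAK, was the gene higher in KO. Its window held 2290 bp in KO and 1000 bp in WT. The KO bases came from regions of 1098 and 1897 bp that touch the neighbours Thoc6 and Hcfc1r1 and not Tnfrsf12a itself. The gene body was covered over 0% in KO and 24.9% in WT, so without the flanks the direction turned to 500 bp fewer in KO. Just inside the 2-fold limit were Tnfsf12 and Tnfsf13, which encode TWEAK and APRIL, with the same 1000 bp in KO and 1968 bp in WT, a ratio of 0.508.

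The other death domain receptors differed among themselves. Tnfrsf10b, the mouse TRAIL death receptor, held 5423 bp in KO and 5309 bp in WT. Tnfrsf1a, the TNF receptor with a death domain, held 1862 bp in KO and 3309 bp in WT, with 33.1 normalised tags in KO and 59.7 in WT. Tnfrsf21 (DR6) held 0 bp in KO and 500 bp in WT. Together with Fas, these 4 genes were covered over 4.34% in KO and 6.27% in WT.

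Receptors of B cells and antigen presenting cells had little cover. Cd40 held none in either library. Tnfrsf13b, which encodes the BAFF and APRIL receptor TACI, held 1829 bp in KO and 1146 bp in WT. Tnfrsf13c, the BAFF receptor gene, held 500 bp in KO and 0 bp in WT, and Tnfrsf17, which encodes BCMA, held 0 bp in KO and 500 bp in WT. Pooled over the 4 windows the share was 2.52% in KO and 1.78% in WT, and no base was covered in both libraries. The 7 B cell markers held less in KO when pooled (2.43%, and 3.54% in WT). Of these, 5 held fewer bases in KO, Cd22 held more (647 bp in KO and 0 bp in WT), and Ms4a1 held 0 bp in both. The part of B cells in these values was not tested.

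The 7 remaining receptors were covered over 2.12% in KO and 2.56% in WT. Apart from Tnfrsf12a and Tnfrsf19, the longest was Tnfrsf26, with 2176 bp in KO and 2456 bp in WT. Tnfrsf22, the gene of a TRAIL decoy receptor, held 598 bp in KO and 1090 bp in WT. Tnfrsf11a, which encodes RANK, held 0 bp in KO and 500 bp in WT.

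Among the ligands, the cluster of Ltb, Tnf and Lta on chromosome 17 carried much of the cover. TNF and lymphotoxin alpha bind TNFR1 and TNFR2, and lymphotoxin beta anchors lymphotoxin alpha at the membrane. Over the locus (17:35189507-35210578, 21072 bp), regions covered 10644 bp in KO and 8463 bp in WT, or 50.5% and 40.2%, with 7 regions in each library. Normalised tags came to 207 in KO (184 to 231) and 143 in WT (126 to 162), and these counting intervals do not overlap. Of the WT bases 82.3% were covered in KO as well, and of the KO bases 65.4% in WT.

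The extra KO cover lay around Ltb and Lta rather than over Tnf. A region of 3664 bp with 75.4 normalised tags spanned Ltb in KO, and one of 2252 bp with 42.0 normalised tags did so in WT. A region of 3176 bp with 56.8 normalised tags spanned most of Lta in KO, and one of 2222 bp with 37.3 normalised tags in WT. The Tnf body itself was covered over 26.4% in KO (697 bp) and 41.3% in WT (1090 bp). The Tnf window still held more in KO, 7594 bp and 5634 bp in WT, because it reaches into both neighbours.

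The Ltb and Tnf promoters are shown because they differ in cover although they lie close together. The Ltb promoter (chr17:35194257-35194506, plus strand) lay inside a region over 250 of 250 bases in both libraries, and the Tnf promoter (chr17:35202008-35202257, minus strand) over 0 bases in KO and 167 in WT. Those 167 bases belong to a 500 bp WT region with 8.16 normalised tags, close to the calling threshold. A KO region starts at 35202336, just beyond the promoter. Capitals in Ltb mark its match to an NF-kB type motif (GGGA, any 2 bases, TTCC) on the opposite strand, 87 bases before the gene start, and capitals in Tnf mark its 10 CpG dinucleotides.
Ltb promoter: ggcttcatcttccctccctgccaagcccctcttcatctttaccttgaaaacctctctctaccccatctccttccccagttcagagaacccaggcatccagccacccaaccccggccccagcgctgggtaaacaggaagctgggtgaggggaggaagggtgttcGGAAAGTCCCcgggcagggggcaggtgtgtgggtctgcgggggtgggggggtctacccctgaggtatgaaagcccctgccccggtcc
Tnf promoter: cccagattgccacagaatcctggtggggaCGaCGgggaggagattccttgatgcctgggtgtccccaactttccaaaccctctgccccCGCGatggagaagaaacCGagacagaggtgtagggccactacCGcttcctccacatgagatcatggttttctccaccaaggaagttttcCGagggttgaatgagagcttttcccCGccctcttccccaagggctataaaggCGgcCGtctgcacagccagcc

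That motif was sought on both strands in the 250 bases before each RefSeq start. It was in 1 of 35 promoters of the superfamily (2.86%) and in 1.20% of 21045 promoters of all coding genes. The search is a description of these letters and says nothing of binding. Superfamily promoters held a median of 7 CpG dinucleotides, and promoters of all coding genes a median of 10. A region touched the promoter of 10 of 31 superfamily genes with a promoter entry in KO (32.3%) and of 12 in WT (38.7%), compared with 11.05% in KO and 11.2% in WT of all coding genes.

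Tnfsf8, on chromosome 4, encodes the CD30 ligand and had the longest cover of any ligand in KO, while in WT the Tnf window held slightly more. Its window held 8367 bp in KO in 10 regions and 5538 bp in WT in 5 regions. The body alone held 7092 bp in KO and 3667 bp in WT. Normalised tags were 140.5 in KO (122 to 161) and 88.0 in WT (74.5 to 103). The counting intervals do not overlap, but the sums come from different called bases, of which 2863 bp were common to both. The KO regions were many and short, the longest being 1514 bp in KO and 1871 bp in WT.

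Most receptors with heavy cover had ligands with little or none. Tnfsf4, the OX40 ligand gene, held 634 bp in KO and 500 bp in WT, and Tnfsf18, the GITR ligand gene, held none. Tnfsf9, which encodes the 4-1BB ligand, held 755 bp in KO and 0 bp in WT. Cd70 encodes the ligand of CD27 and Tnfsf14 a ligand of HVEM, and each held 500 bp in both libraries. Tnfsf15, whose product binds DR3, held none. Among the pairs considered here, the exceptions were Tnfsf8 with its receptor gene Tnfrsf8, and Tnf and Lta with Tnfrsf1b. Other pairings of these ligands and receptors were not considered. Most of the cover in the Tnf window lay outside the Tnf body, which held 697 bp in KO and 1090 bp in WT. Tnfsf11, which encodes RANKL, held 1511 bp in KO and 1146 bp in WT, and Tnfsf13b, which encodes BAFF, held 0 bp in KO and 500 bp in WT.

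By role, the 9 ligands made by T cells were covered over 11.7% in KO and 10.1% in WT. The 9 ligands of antigen presenting and other cells were covered over 1.67% in KO and 2.0% in WT.

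Long regions were more frequent at the superfamily than over the genome. The 41 windows held 90 regions in KO and 99 in WT, with median lengths of 767 bp in KO and 782 bp in WT. Regions of at least 2 kb made up 20% of these in KO and 15.2% in WT, whereas over the genome they made up 4.26% in KO and 3.79% in WT. Most of these long regions lay at the costimulatory receptors, and the others at Tnfrsf10b, Ltb and Lta, so length was a trait of a few loci. Regions of the minimum 500 bp made up 28.9% in KO and 38.4% in WT, and 54.3% in KO and 52.7% in WT over the genome. Regions touching one of the other library were 63.3% in KO and 57.6% in WT, and 41.0% in KO and 29.8% in WT over the genome.

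Cover was denser upstream and in the first 1 kb than in the rest of the body, as it was over all coding genes. In 30 members of at least 2 kb with a known strand, the first 1 kb of the body was covered over 24.2% in KO and 25.7% in WT, and the rest of the body over 9.54% in KO and 10.5% in WT. The 5 kb upstream were covered over 18.98% in KO and 19.6% in WT. The 5 kb downstream showed the widest gap between the libraries, with 15.7% in KO and 9.88% in WT. Over 15243 coding genes of that kind, the downstream share was 3.41% in KO and 3.77% in WT. Their first 1 kb was covered over 5.63% in KO and 5.25% in WT, and the 5 kb upstream over 3.36% and 3.63%. The rest of their bodies was covered over 1.86% in KO and 2.53% in WT. Among members, the rest-of-body share pools long genes with little cover, such as Tnfrsf19, with the fully covered Tnfrsf4 and Tnfrsf18.

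Of 31 members with a known strand, 11 held more downstream bases in KO (35.5%), 3 held fewer (9.68%) and 17 were equal. Over 17274 coding genes with a known strand, 11.7% held more in KO and 14.5% held fewer. Tnf held 1899 bp more in KO, Tnfrsf12a 1790 bp, Tnfrsf25 1566 bp, Ltb 1389 bp and Tnfrsf8 1329 bp. The flanks of neighbouring members overlap, so the Tnf and Ltb values share the long region over Ltb. Other downstream bases lie in neighbouring genes. The 2066 bp KO region downstream of Tnfrsf25 touches Espn, and the KO regions downstream of Tnfrsf12a touch Thoc6 and Hcfc1r1.

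**Figure D5:**
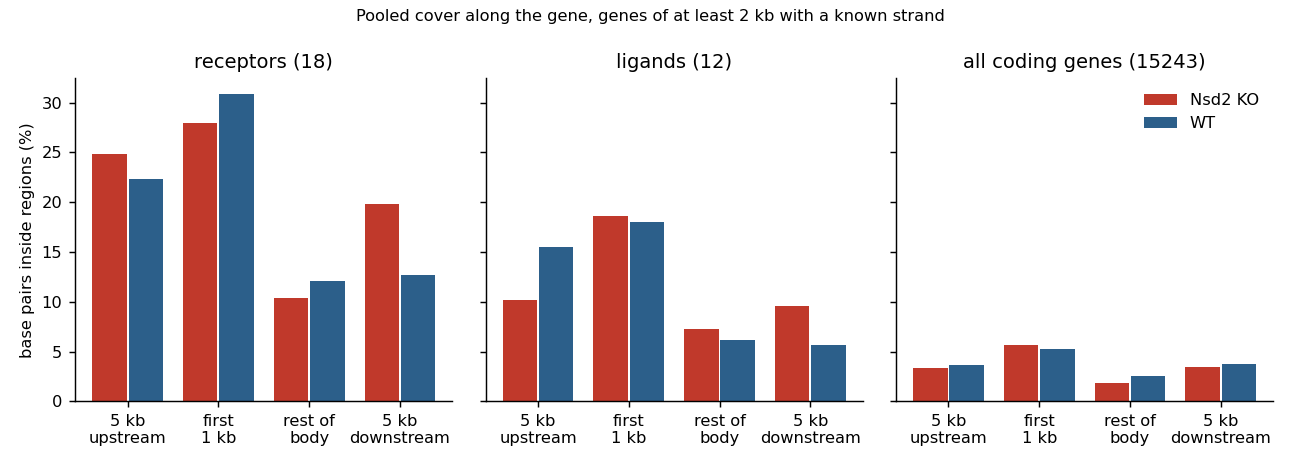
Pooled share of base pairs inside regions (%) in the 5 kb upstream, the first 1 kb of the body, the rest of the body and the 5 kb downstream, for 18 receptors, 12 ligands and 15243 coding genes of at least 2 kb with a known strand, with Nsd2 KO bars left of WT bars and no error bars. In receptors the downstream share is 19.8% in KO and 12.7% in WT, in ligands 9.58% in KO and 5.69% in WT.

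Genes that carry the receptors' signal did not share one direction. A list of 34 adaptors, ubiquitin enzymes and NF-kB genes was covered over 6.46% in KO and 6.39% in WT, and 12 of the 34 held more covered bases in KO (35.3%) and 20 held fewer (58.8%). Over all coding windows these shares were 22.8% and 36.1%. By the rule of size 6 were lower in KO (Ikbkb, Rel, Rela, Tab2, Tank and Tradd) and 5 were higher (Birc2, Nfkb2, Relb, Sharpin and Traf4), which is 17.6% and 14.7% of the list against the backgrounds of 13.9% and 6.31%. Among the 27 that reached 1000 bp in either library the shares were 22.2% lower and 18.5% higher, against 33.6% and 15.2%. Nfkb2 and Relb, which encode the NF-kB subunits of the noncanonical pathway, held 6441 and 4188 bp in KO, and 1000 and 1750 bp in WT. Traf1, the gene of an adaptor recruited to TNFR2 and 4-1BB, had the longest cover of the list in KO, with 12957 bp, and 9334 bp in WT. Nfkb1 held 7398 bp in KO and 10713 bp in WT, and Tnfaip3, which encodes the brake protein A20, held 5515 bp in KO and 7350 bp in WT.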

How the data were processed

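The data were the authors' deposited region lists of 1 KO and 1 WT library. Per the submitters' processing notes the tools were Trim Galore, Bowtie2, Picard, HOMER and deepTools, with the mm10 build. The sources used here give neither their versions nor the step each tool served. Per the file headers, HOMER findPeaks was run in histone style on each library alone, stitching 500 bp peaks that passed a Poisson threshold of 0.001, with a minimum distance of 1000 bp. The signal in the deposited lists is a normalised tag count, expressed per 10000000 tags of the library, per the file headers. With equal totals, a change of the mark across the whole genome cannot be seen. The deposited score and the deposited clonal fold change, a ratio, were not used for any value in the text. Region length was taken from the deposited start and end.

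Windows were gene bodies from RefSeq GRCm38.p6, the assembly named mm10, with 5000 bp on either side. Overlaps of at least 1 bp were computed with scipy 1.17.1, pandas 2.3.3 and numpy 2.4.6 under Python 3.11.15. Covered length counts bases inside the window, and normalised tags count whole regions that touch it. Exact Poisson intervals are at the 95% level. Strand came from the RefSeq promoter table, for 31 of the 41 genes. The annotation used here has no exons, so exonic and intronic positions were not separated. The interval code was tested on simulated data. With 1 library per group no test was made.

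The members, the gene lists and their roles were chosen with earlier results of these data known. Named were 8 genes fixed by symbol (Tnfrsf4, Tnfrsf18, Tnfrsf9, Tnfrsf1b, Cd27, Tnf, Lta and Ltb), the 8 receptors and 6 ligands with the longest mean cover, genes past the rule of size, and genes with no region. Tnfrsf25, which belongs to 2 roles, is pooled with the costimulatory receptors. Members named beyond this rule were named to account for every one. The alternatives were other flanks, folds, region filters, 500 bp WT regions held to the KO tag threshold, normalised tags in place of length, and division by the ratio of covered lengths. Holding the 500 bp regions of both lists to that threshold was added after seeing the data. It used normalised tags and so also dropped KO regions that the caller had kept, leaving 30 members with a KO region in place of 32.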

Additional observations from a re-analysis of the deposited data

How the results depend on the processing

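Tnfrsf19 was lower in KO under every window and region setting tried. The calls on Fas and Tnfsf10 rested on regions of about 500 bp and ended when regions under 1 kb or under 10 normalised tags were dropped. The call on Fasl ended with no flank (200 bp more in KO), with a 10 kb flank and with regions of at least 1 kb, and Tnfrsf12a turned to -500 bp with no flank. Members with a region numbered 14 in KO and 19 in WT when regions under 1 kb were dropped. KO covered length as a percent of WT was 94.6% without flanks for all members, and 102% with them. For receptors it was 89.2% without flanks and 99.6% with 10 kb flanks. Members lower in KO numbered 9 at 1.5-fold, 7 with 500 bp regions of both lists held to the KO tag threshold (an alternative chosen after seeing the data) and 7 with regions of at least 10 normalised tags. Members higher in KO numbered 4 at 1.5-fold, 0 at 3-fold, 5 after dividing by the covered-length ratio, 2 by normalised tags, 2 with a 10 kb flank, 2 with regions of at least 1 kb, 4 with 500 bp regions of WT, or of both lists, held to the KO tag threshold and 3 with regions of at least 10 normalised tags. The matching counts over all coding windows were not computed under these alternatives. These member counts therefore have no background and show only how the counts move with the setting. The Tnfrsf4-Tnfrsf18 locus had 98.3% of the WT length in KO, 111% by normalised tags, 100.3% with a 10 kb flank, 104.7% with regions of at least 1 kb, 100.9% with 500 bp regions of WT, or of both lists, held to the KO tag threshold and 104.7% with regions of at least 10 normalised tags. Holding WT alone to that threshold can only raise the KO share, and gave 114% for all members and 99.5% for all coding windows; holding both lists to it gave 111% and 88.2%. Of 246 differences of single genes under an alternative, 11 in 9 genes had the opposite sign: Fasl, Tnfrsf13b, Tnfrsf12a, Tnf, Tnfrsf1b, Tnfrsf25 and Tnfrsf22 with no flank, Tnfrsf25 and Tnfrsf26 with a 10 kb flank, and Lta and Tnfrsf1b with regions of at least 1 kb. A 2-fold call was gained in 27 values and lost in 6, besides the 2 in Fasl and Tnfrsf12a whose sign turned. Depth limits what can be said of short regions, since a 500 bp region holds about as many tags as the threshold. No paired analysis was possible because each genotype had 1 library.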

Other observations

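The receptors Ltbr, Relt, Eda2r, Edar and Ngfr belong to the superfamily but fall outside the symbol rule and were read in the same way. Relt, which encodes a receptor of lymphoid tissue, held 4933 bp in KO and 7001 bp in WT. Edar, the ectodysplasin receptor gene, held 1627 bp in KO and 2518 bp in WT. Ngfr, which encodes the p75 neurotrophin receptor, held 2663 bp in KO and 686 bp in WT and was the one past the 2-fold rule. Ltbr and Eda2r held no region in either library.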
